A study of Mus musculus with 36 samples.

Results

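The muscle nicotinic acetylcholine receptor (AChR) was followed here through the transcripts of its 5 subunit genes, Chrna1, Chrnb1, Chrnd, Chrne and Chrng. They were taken as the rows of the deposited count tables whose Ensembl ID belongs to 1 of these symbols, 5 of 51912 gene IDs, and each was found once in both tables. RNA-seq had been done on whole soleus and tibialis anterior (TA) muscle from 3-month-old male C57BL/6 mice, either WT or ∆Ig3-MuSK, with 9 libraries in each of the 4 groups (36 in all). In ∆Ig3-MuSK mice CRISPR-Cas9 removed exons 6 and 7 of Musk, which encode the third immunoglobulin-like domain of the muscle-specific kinase MuSK, the domain that binds bone morphogenetic proteins with high affinity. The deletion is in the germline, so every cell carries it, and WT mice carry no engineered allele. Each library came from 1 muscle, and p-values measure the spread between libraries only. The study describes a single muscle per animal, while 8 label numbers per genotype occur in both muscles, and whether a shared number marks the same animal is not stated. The comparisons ask whether subunit transcripts differ between the genotypes within a muscle, between the slow-fiber-rich soleus and the fast-fiber-rich TA, and whether the genotype effect depends on the muscle.

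The AChR is a ring of subunits in the muscle membrane that opens a cation channel when motor nerve terminals release acetylcholine. Fetal muscle builds it from alpha, beta, delta and gamma subunits. After birth the epsilon subunit takes the place of gamma and the receptor becomes confined to the neuromuscular junction, where nuclei beneath the nerve terminal transcribe the subunit genes. Agrin from the nerve acts through LRP4 and MuSK to cluster receptors there, and denervation is known to bring back subunit transcription along the fiber, the gamma subunit included. Because whole muscle was used, junctional nuclei are a small part of the tissue, and fewer cells of a type cannot be told apart from less RNA per cell.

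Chrna1 (alpha, ENSMUSG00000027107) is a minus-strand gene of chromosome 2 (GRCm38 positions 73563215 to 73580338). Chrnb1 (beta, ENSMUSG00000041189) spans 69784036 to 69795943 and Chrne (epsilon, ENSMUSG00000014609) 70614883 to 70619216, both on the minus strand of chromosome 11. Chrnd (delta, ENSMUSG00000026251; 87190607 to 87200070) and Chrng (gamma, ENSMUSG00000026253; 87204657 to 87212694) are neighbors on the plus strand of chromosome 1, with 4586 bp between them. No exon of a member overlaps an exon of another annotated gene, although 4930544D05Rik lies inside Chrne on the opposite strand and the libraries were not stranded. The union of annotated exons is 4386 bp for Chrna1, 2531 bp for Chrnb1, 3288 bp for Chrnd, 1690 bp for Chrne and 4163 bp for Chrng, and levels are compared between subunits only after division by this length.

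The 250 bases before the RefSeq start site (GRCm38.p6) are shown for 4 members, 5′ to 3′ on the strand of the gene, because they hold letters known as motifs of muscle and synaptic transcription. Capitals mark the E-box forms CAGCTG and CAGGTG, which myogenic factors such as myogenin bind, and the N-box CCGGAA, which GABP binds in synaptic genes. Both strands were searched. The windows are chr2:73580339-73580588 (minus) for Chrna1, chr11:69795938-69796187 (minus) for Chrnb1, chr11:70619195-70619444 (minus) for Chrne and chr1:87205561-87205810 (plus) for Chrng. There was no entry for Chrnd. The Chrng window lies inside the gene span given above, which starts at 87204657, so its RefSeq start is downstream of that annotated start. The windows of Chrnb1 and Chrne also reach slightly into their gene spans.
Chrna1: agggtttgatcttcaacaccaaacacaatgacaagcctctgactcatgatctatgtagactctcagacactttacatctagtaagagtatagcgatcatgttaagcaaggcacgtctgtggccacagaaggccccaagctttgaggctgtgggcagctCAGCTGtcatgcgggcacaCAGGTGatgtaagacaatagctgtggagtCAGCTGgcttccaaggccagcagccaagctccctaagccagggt
Chrnb1: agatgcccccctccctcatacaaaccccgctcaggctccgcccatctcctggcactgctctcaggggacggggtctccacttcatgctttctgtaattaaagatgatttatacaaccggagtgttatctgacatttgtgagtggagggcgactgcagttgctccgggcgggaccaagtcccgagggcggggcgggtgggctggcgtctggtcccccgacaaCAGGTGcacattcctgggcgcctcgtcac
Chrne: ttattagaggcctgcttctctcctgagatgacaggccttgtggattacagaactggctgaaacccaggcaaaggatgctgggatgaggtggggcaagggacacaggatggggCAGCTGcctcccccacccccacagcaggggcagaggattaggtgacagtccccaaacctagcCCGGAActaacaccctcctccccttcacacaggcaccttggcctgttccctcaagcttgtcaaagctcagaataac
Chrng: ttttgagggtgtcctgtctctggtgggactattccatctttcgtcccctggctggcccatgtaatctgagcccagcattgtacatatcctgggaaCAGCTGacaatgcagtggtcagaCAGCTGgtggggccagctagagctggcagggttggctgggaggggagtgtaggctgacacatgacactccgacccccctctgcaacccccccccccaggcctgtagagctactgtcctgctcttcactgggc

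Chrna1 held CAGCTG at positions −92 and −44 and CAGGTG at −73, counted to the first base of the motif with −1 next to the start site. Chrnb1 held CAGGTG at −29 and no CAGCTG. Chrne held CAGCTG at −138 and the N-box CCGGAA at −76, the only N-box in the 4 windows. Chrng held CAGCTG at −155 and −132. Among 32851 RefSeq promoter windows of the same length, 13.0% held CAGCTG, 17.2% held CAGGTG, 12.0% held CCGGAA and 66.2% held some CANNTG, so such matches are common and are given as a description of these letters only.

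The libraries held between 43492062 and 78660422 counts on genes. Soleus libraries held at most 60426556 and TA libraries at least 49287472, so the ranges of the muscles overlapped. The muscle markers followed the labels in every library. The 7 slow fiber genes summed to 19500 to 28130 CPM (counts scaled to the same library total, with TMM factors) in the soleus and 54.1 to 184 in the TA, and 8 fast fiber genes to 19930 to 42620 and 73490 to 97630 CPM. Musk, the gene that carries the deletion, was at 12.5 to 18.4 CPM (median 14.7) in WT soleus and 8.07 to 17.5 (median 10.5) in ∆Ig3-MuSK soleus. In the TA it was at 2.87 to 5.58 CPM (median 3.81) in WT and 2.62 to 4.01 (median 3.08) in ∆Ig3-MuSK. These ranges overlapped, and counts over the whole gene do not show the deleted exons, so they do not check the genotype labels.

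The subunit differences that passed the test lay between the muscles, and they ran in opposite directions for different subunits. Chrna1 and Chrnd were higher in the soleus, Chrnb1 and Chrne were higher in the TA, and Chrng was low in both. By edgeR's quasi-likelihood test 4 of 5 members passed in WT and 4 of 5 in ∆Ig3-MuSK, where 57.5% and 56.1% of the 20841 genes tested did. In each genotype 2 members were higher in the soleus (30.2% of all genes in WT and 28.5% in ∆Ig3-MuSK) and 2 lower (27.3% and 27.6%). At an unadjusted p under 0.05 there were again 4 of 5, compared with 69.6% and 68.8% of all genes. The median log2 fold change of the members was 0.49 in WT and 0.32 in ∆Ig3-MuSK, against 0.02 and 0.0 for all genes.

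Chrna1 encodes the subunit that carries most of the acetylcholine binding site. In the soleus its level was 23.6 to 29.7 CPM (median 27.0) in WT and 21.6 to 33.8 (median 26.4) in ∆Ig3-MuSK. In the TA it was 4.72 to 6.80 CPM (median 5.77) in WT and 4.35 to 12.2 (median 5.34) in ∆Ig3-MuSK. Every soleus library was above every TA library. Chrna1 was 4.78-fold higher in the soleus in WT (95% confidence interval 3.97 to 5.75; log2 fold change 2.26, SE 0.13; edgeR adjusted p = 1.2e-17). The difference was 4.41-fold in ∆Ig3-MuSK (3.66 to 5.30; log2 fold change 2.14, SE 0.13; edgeR adjusted p = 5.15e-17).

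Chrnd encodes the delta subunit, which shares a binding site with alpha. Its level was 4.81 to 7.63 CPM (median 6.62) in WT soleus and 3.27 to 9.36 (median 5.49) in ∆Ig3-MuSK soleus. In the TA it was 1.05 to 2.46 CPM (median 1.70) in WT and 1.63 to 2.87 (median 2.01) in ∆Ig3-MuSK. The muscles did not overlap in either genotype. Chrnd was 3.70-fold higher in the soleus in WT (95% confidence interval 3.00 to 4.57; edgeR adjusted p = 7.75e-14) and 2.73-fold higher in ∆Ig3-MuSK (2.22 to 3.35; edgeR adjusted p = 6.24e-11).

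Chrnb1 encodes the beta subunit, through which the receptor is linked to rapsyn in the cluster. Its level was 10.4 to 16.4 CPM (median 14.2) in WT soleus and 10.9 to 14.9 (median 11.3) in ∆Ig3-MuSK soleus. In the TA it was 17.6 to 26.6 CPM (median 21.5) in WT and 18.7 to 25.7 (median 21.9) in ∆Ig3-MuSK. Every TA library was above every soleus library. Chrnb1 was 1.56 times higher in the TA in WT (log2 fold change, soleus against TA, −0.64, SE 0.08; edgeR adjusted p = 7.01e-09) and 1.80 times higher in ∆Ig3-MuSK (−0.85, SE 0.08; edgeR adjusted p = 1.16e-11).

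Chrne encodes the epsilon subunit of the adult receptor. Its level was 3.42 to 7.10 CPM (median 4.92) in WT soleus and 3.70 to 8.54 (median 5.21) in ∆Ig3-MuSK soleus. In the TA it was 8.35 to 12.0 CPM (median 9.10) in WT and 7.19 to 14.3 (median 9.34) in ∆Ig3-MuSK. The muscles did not overlap in WT, and in ∆Ig3-MuSK 8 of 9 soleus libraries were below the lowest TA library. Chrne was 1.91 times higher in the TA in WT (log2 fold change, soleus against TA, −0.93, SE 0.13; edgeR adjusted p = 1.22e-07) and 1.78 times higher in ∆Ig3-MuSK (−0.83, SE 0.13; edgeR adjusted p = 9.67e-07).

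Chrng encodes the gamma subunit of the fetal receptor and was close to the limit of detection. It had 4 to 46 counts per library (median 13) in WT soleus, 3 to 17 (median 8) in ∆Ig3-MuSK soleus, 1 to 32 (median 12) in WT TA and 2 to 19 (median 8) in ∆Ig3-MuSK TA. All 4 groups overlapped. A library with 4 counts has an exact 95% Poisson interval of 1.09 to 10.2 counts and the one with 46 an interval of 33.7 to 61.4, which cover counting error only. The muscle difference of Chrng did not pass the test in WT (log2 fold change 0.49, 95% confidence interval −0.31 to 1.28; edgeR adjusted p = 0.275) or in ∆Ig3-MuSK (0.32, −0.60 to 1.23; edgeR adjusted p = 0.551). In WT the interval ran from 0.808- to 2.43-fold, and with a library left out the estimate ranged from 0.13 to 0.79. Chrnd, its neighbor on chromosome 1, passed in both genotypes.

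**Figure D1:**
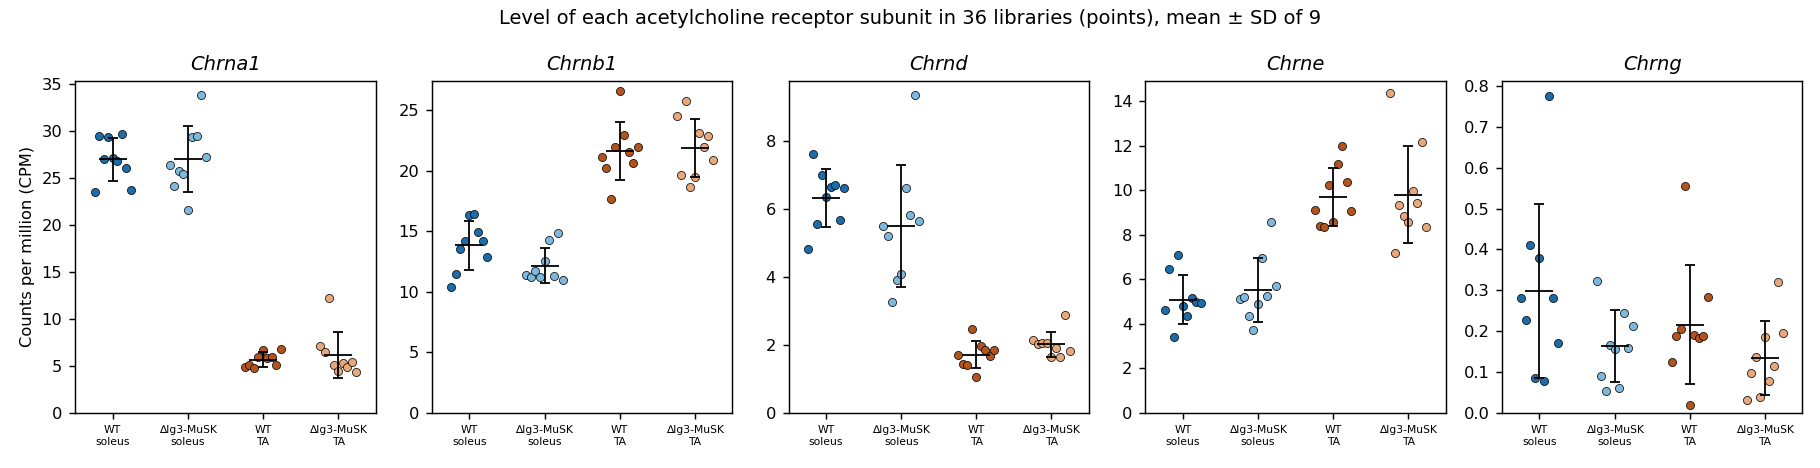
CPM (y axis, linear from 0, a separate scale for each gene) of the 5 AChR subunit genes in 36 libraries, by group (x axis). Points are libraries and bars are the mean ± SD of 9; Chrna1 and Chrnd sit higher in the soleus, Chrnb1 and Chrne higher in the TA, and the 4 groups overlap for Chrng.

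Soleus and TA counts came in separate tables, so the muscle and any difference in the handling of the 2 sets cannot be told apart. Markers of other cell types differed between the muscles as well, where 57.5% of all genes in WT and 56.1% in ∆Ig3-MuSK were called. Of all genes, 30.2% in WT and 28.5% in ∆Ig3-MuSK were higher in the soleus, and 27.3% and 27.6% were lower. All 4 satellite cell markers were higher in the soleus in both genotypes, with sums of 34.4 to 62.6 CPM against 24.4 to 34.0 in the TA. Of 6 endothelial markers, 5 in WT and 4 in ∆Ig3-MuSK were higher in the soleus (224 to 365 CPM against 188 to 253), and of 6 fibroblast and tendon markers 5 and 3 were (222 to 1226 CPM against 365 to 711). Of 7 Schwann cell markers 1 and 2 were higher (68.0 to 137 CPM against 56.4 to 126). Of 8 neuron markers, 2 were higher and 5 lower in the soleus in WT and 2 and 2 in ∆Ig3-MuSK, with sums of 5.76 to 10.7 CPM against 6.14 to 8.35. Of 6 macrophage markers, 1 was higher in WT and 1 lower in ∆Ig3-MuSK (11.7 to 76.7 CPM against 27.4 to 44.6). No marker gene of these lists was at 0 in every library of a group, and the part of these cell types in the subunit differences was not tested.

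Per kilobase of exon, the order of the subunits differed between the muscles. In WT soleus the means were 6.15 ± 0.527 CPM per kb for Chrna1 (SD, n = 9), 5.46 ± 0.802 for Chrnb1, 3.01 ± 0.650 for Chrne, 1.93 ± 0.260 for Chrnd and 0.0716 ± 0.0512 for Chrng. Chrna1 was above Chrnb1 in 7 of 9 libraries and their ranges overlapped, so these neighbors were not separated, whereas the other neighbors kept this order in 9 of 9 libraries. In WT TA the order was Chrnb1 (8.54 ± 0.944 CPM per kb), Chrne (5.73 ± 0.777), Chrna1 (1.29 ± 0.176), Chrnd (0.519 ± 0.122) and Chrng (0.0516 ± 0.0350), the same in 9 of 9 libraries. The ∆Ig3-MuSK groups had the same orders as WT, with Chrna1 above Chrnb1 in 8 of 9 soleus libraries. Across libraries the ranges of Chrnb1 and Chrne overlapped in all 4 groups, and those of Chrne and Chrnd in both soleus groups. These orders rest on the union of exons. The annotated principal transcript is 4386 bp for Chrna1 but 2155 bp for Chrnb1, and the order with that length was not tested.

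The sum over the 5 subunits depended on division by exon length and was not tested. Without that division it was 43.7 to 57.8 CPM in WT soleus and 32.3 to 43.0 in WT TA, which did not overlap. In ∆Ig3-MuSK the undivided sum was 43.3 to 66.8 and 34.3 to 49.5 CPM, which overlapped. Per kilobase of exon, the ranges of the 4 groups overlapped. The sum was then 16.6 ± 1.55 CPM per kb (SD, n = 9) in WT soleus, 15.9 ± 2.56 in ∆Ig3-MuSK soleus, 16.1 ± 1.45 in WT TA and 16.5 ± 2.36 in ∆Ig3-MuSK TA. Of this sum, Chrna1 made up 34.9 to 40.2% in WT soleus and 7.22 to 9.57% in WT TA, and 35.1 to 42.5% and 6.67 to 14.6% in the ∆Ig3-MuSK muscles. Chrne made up 13.2 to 22.5% in WT soleus and 29.1 to 40.4% in WT TA, and 16.1 to 23.5% and 28.9 to 41.5% in ∆Ig3-MuSK. The alpha-to-epsilon ratio was 2.12 ± 0.427 (SD, n = 9) in WT soleus and 0.228 ± 0.0414 in WT TA, and 1.96 ± 0.359 and 0.249 ± 0.109 in ∆Ig3-MuSK. Transcripts per kilobase are not protein, and the alpha subunit is known to be present in more than a single copy per receptor.

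**Figure D2:**
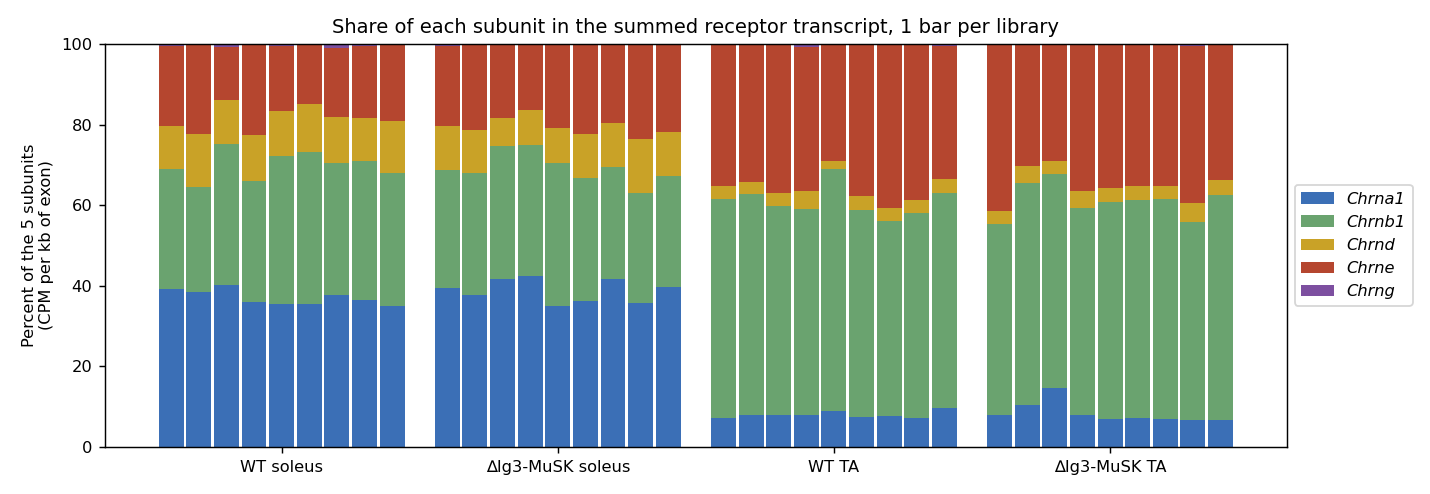
Each bar is 1 library and shows the percent (y axis) that each subunit gene contributes to the summed CPM per kb of the 5 genes, with libraries grouped by genotype and muscle (x axis). Chrna1 takes 34.9 to 42.5% of the soleus bars and 6.67 to 14.6% of the TA bars, and Chrng is a thin band at the top that is at most 1.04%.

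The gamma and epsilon genes mark the fetal and the adult receptor, and their balance was expressed as the fetal share, Chrng divided by the sum of Chrng and Chrne per kb. The fetal share was 0.477 to 5.75% (median 2.25%) in WT soleus and 0.347 to 2.51% (median 1.29%) in ∆Ig3-MuSK soleus. In the TA it was 0.0886 to 2.16% (median 0.724%) in WT and 0.0864 to 1.05% (median 0.538%) in ∆Ig3-MuSK. The adult subunit dominated in every library, and the ranges of all groups overlapped. The level of the share depended on the gene length used. In WT soleus its mean was 2.46% with the union of exons, 3.42% with the annotated principal transcript and 5.76% from counts without length.

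The mean fetal share was higher in the soleus than in the TA in both genotypes, although the WT difference depended on how the libraries were matched. The means were 2.46 ± 1.78% (SD, n = 9) and 0.885 ± 0.576% in WT, a difference of 1.58 percentage points (exact permutation test over 48620 assignments, 2-sided, p = 0.0143, adjusted over the 4 comparisons of the share 0.0408). This WT call was lost when soleus and TA libraries were matched by title number (exact permutation p = 0.0508) or by label number (exact permutation p = 0.102). In ∆Ig3-MuSK they were 1.25 ± 0.730% and 0.564 ± 0.341%, a difference of 0.684 points (exact permutation test, 2-sided, p = 0.0204, adjusted 0.0408). Of the genes in the share, Chrne passed the test between the muscles and Chrng did not. Between the genotypes the share was lower in ∆Ig3-MuSK by 1.21 points in the soleus (exact permutation test, 2-sided, p = 0.0754, adjusted 0.101) and by 0.322 points for the TA (p = 0.17 in the same exact permutation test, adjusted 0.17), and neither difference passed. The soleus value depended on single WT libraries in both directions. Without replicate 4 or replicate 6, both with 4 Chrng counts, the exact permutation p was 0.0279 or 0.0353. Without replicate 7, which had 46 counts, the difference shrank to −0.803 points (exact permutation p = 0.147), and without replicate 3 to −0.939 points (exact permutation p = 0.143). The TA difference shrank to −0.163 points without WT replicate 4, which had 32 counts (exact permutation p = 0.339).

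**Figure D3:**
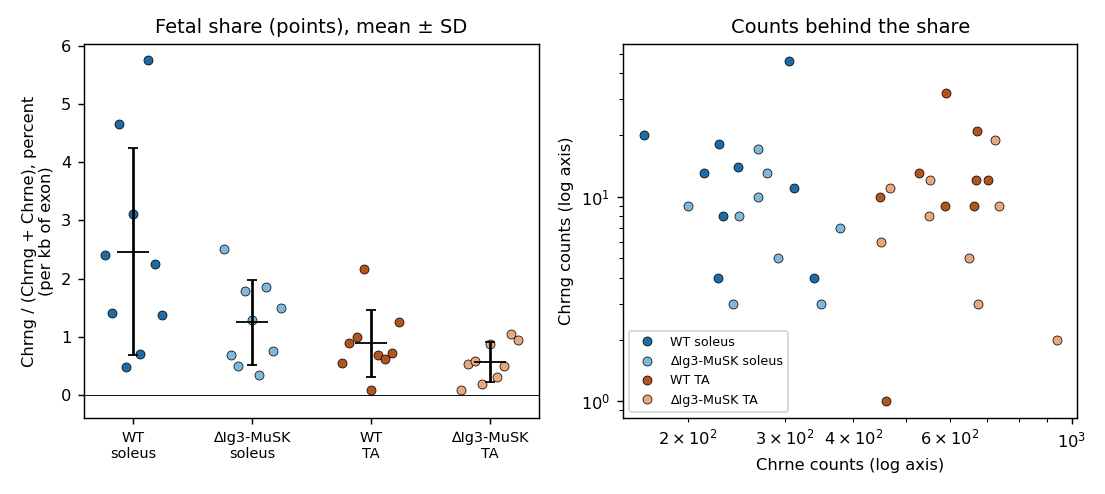
Left, the fetal share in percent (y axis) by group, with points for libraries and bars for the mean ± SD of 9; right, Chrng against Chrne counts of the same 36 libraries, both on log axes. The share, per kb of the union of exons, is at most 5.75% in any library and rests on 1 to 46 Chrng counts.

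Within a muscle, no subunit gene passed the test between ∆Ig3-MuSK and WT. By edgeR's quasi-likelihood test 0 of 5 members were called in the soleus, where 0.952% of 19439 genes were, and 0 of 5 in the TA, where 0.0149% of 20075 were. DESeq2 called none of the 5 in the soleus and none of 4 in the TA, where it gave Chrng no adjusted p. At an unadjusted p under 0.05 there were 2 members in the soleus, Chrnb1 and Chrng, and 0 in the TA, compared with 18.5% and 24.1% of all genes. Both soleus members were lower in ∆Ig3-MuSK, a direction that 10.1% of all genes took at that level, with 8.48% higher. The members' median log2 fold change was −0.20 in the soleus and 0.02 in the TA. Marker lists of other cell types had medians on either side of 0 between the genotypes in the soleus. Few of their genes were called, and the summed ranges of the genotypes overlapped. The 8 neuron markers had a median log2 fold change of 0.62 with 1 called higher, and sums of 6.60 to 8.69 CPM in WT and 5.76 to 10.7 in ∆Ig3-MuSK. The 6 fibroblast and tendon markers had a median of −0.50 with none called, and sums of 528.3 to 1226 CPM in WT and 222 to 759 in ∆Ig3-MuSK. The 6 macrophage markers had a median of −0.43 with none called, and sums of 30.9 to 76.7 CPM in WT and 11.7 to 52.0 in ∆Ig3-MuSK. Of 4 satellite cell markers 1 was called lower, with a median of −0.05. The 6 endothelial markers had a median of −0.16 and the 7 Schwann cell markers 0.17, with none called. Among fiber type markers, the 8 fast genes had a median of 0.25 and the 7 slow genes −0.04, with none called. The fast genes summed to 19930 to 42620 CPM in WT soleus and 28190 to 40110 in ∆Ig3-MuSK soleus. The part of these cell and fiber types in the subunit values was not tested.

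In the soleus, Chrna1 had a log2 fold change of −0.01 in ∆Ig3-MuSK against WT (SE 0.07, edgeR adjusted p = 0.956). Its 95% confidence interval, 0.900- to 1.10-fold, was the narrowest of the members. Chrnb1 was at −0.20 (SE 0.08, edgeR adjusted p = 0.211), with 7 of 9 ∆Ig3-MuSK libraries below the WT mean and an interval of 0.770- to 0.984-fold. Chrnd was at −0.23 (SE 0.15, edgeR adjusted p = 0.427), with 3 of the 9 mutant libraries under the WT range and 1 over it. Chrne was at 0.10 (SE 0.14, edgeR adjusted p = 0.74). Chrng was at −0.91 (SE 0.40, edgeR adjusted p = 0.231), with 8 of 9 ∆Ig3-MuSK libraries below the WT mean and an interval of 0.297- to 0.955-fold. Without WT replicate 7, the library with the highest Chrng, the value was −0.55 (edgeR adjusted p = 0.474). The intervals of Chrnb1 and Chrng lay below 1, but they are not adjusted for the number of genes tested.

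In the TA, the log2 fold changes were 0.12 for Chrna1 (SE 0.16, edgeR adjusted p = 0.65) and 0.02 for both Chrnb1 (SE 0.07, edgeR adjusted p = 0.894) and Chrne (SE 0.11, edgeR adjusted p = 0.935). The value of Chrna1 rested on a single ∆Ig3-MuSK library, replicate 3, at 12.2 CPM where the next was at 7.12, and without it the value was −0.07 (edgeR adjusted p = 0.659). Chrnd was at 0.23 (SE 0.13, edgeR adjusted p = 0.279), with 7 of 9 ∆Ig3-MuSK libraries above the WT mean. Chrng was at −0.73 (SE 0.41, edgeR adjusted p = 0.272), with 8 of 9 below it, and at −0.43 without WT replicate 4 (edgeR adjusted p = 0.502). The interval of Chrne, 0.862- to 1.19-fold, and that of Chrnb1, 0.913- to 1.12-fold, leave room only for small changes of these adult receptor genes, whereas the interval of Chrng ran from 0.334- to 1.09-fold.

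The genotype effects of the soleus and the TA were compared directly with an interaction term over all 36 libraries, and 0 of 5 members passed, as did 0.0% of 20841 genes with edgeR. Chrnd came nearest, with a difference of effects of −0.44 on the log2 scale (95% confidence interval −0.86 to −0.02; unadjusted p = 0.0404, edgeR adjusted p = 0.181), an unadjusted level that 24.9% of all genes reached, 11.2% in this direction and 13.7% in the other. The estimates for Chrna1 (−0.12), Chrnb1 (−0.20), Chrne (0.10) and Chrng (−0.17) had intervals that included 0. DESeq2 called 797 genes for this term, with neither Chrna1 nor Chrnb1 among them, and gave the other 3 members no adjusted p.

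**Figure D4:**
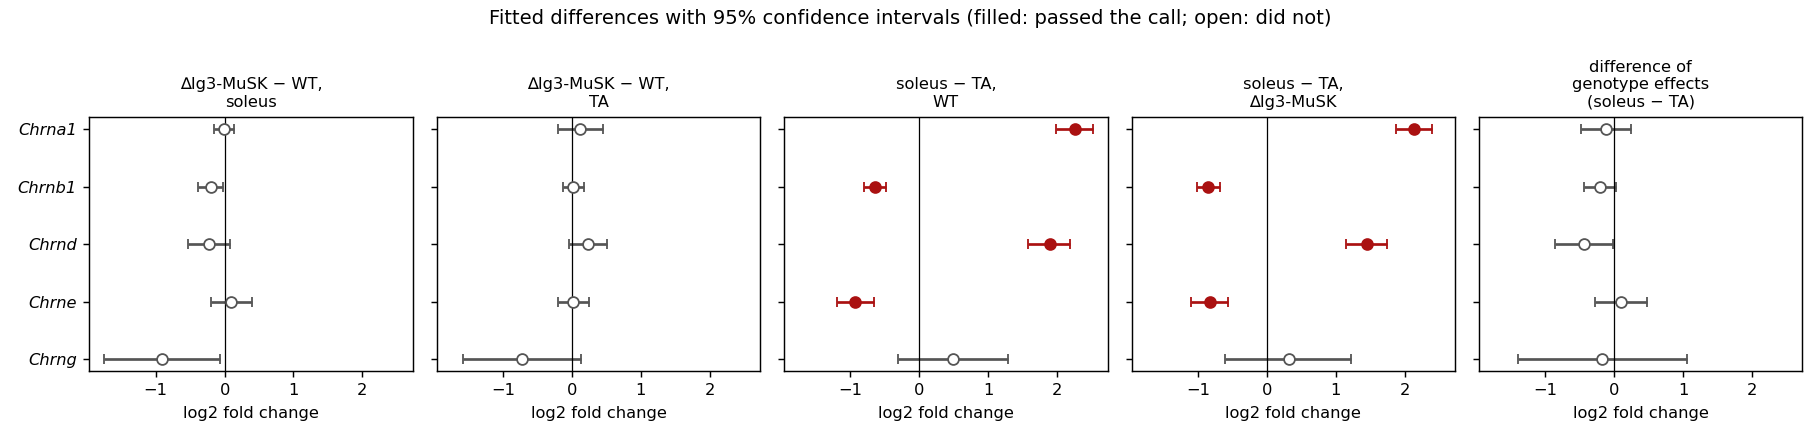
Log2 fold changes (x axis) of the 5 subunit genes (y axis) for the genotype effect in each muscle, the muscle difference in each genotype and the interaction, with 95% confidence intervals. Filled points passed an adjusted p under 0.05 with at least a 1.2-fold change; they are Chrna1, Chrnb1, Chrnd and Chrne in both muscle differences and no other.

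Subunits also varied together among the libraries of a group. Each library's log2 CPM was taken as a deviation from its group mean, and the 10 pairs of members were correlated over the 18 libraries of each muscle, 20 correlations in all. In the soleus, Chrnd and Chrne had the closest relation (Pearson r = 0.80, permutation p = 0.0002, adjusted 0.004; Spearman rho 0.85, permutation p = 4e-05, adjusted 0.0008), and r was 0.73 without the 2 libraries farthest from the median of Chrnd. Chrna1 followed Chrnd (r = 0.75, permutation p = 0.0015, adjusted 0.01; rho 0.81, permutation p = 0.00018, adjusted 0.0018; 0.59 without 2 libraries). Chrna1 also followed Chrne (r = 0.62, permutation p = 0.00925, adjusted 0.0462; rho 0.63, permutation p = 0.00808, adjusted 0.039; 0.51 without 2). The alpha, delta and epsilon transcripts moved together among soleus libraries, and no correlation of Chrnb1 or Chrng with another member passed there. Replicate 8 of ∆Ig3-MuSK soleus held the highest Chrna1, Chrnd and Chrne of its group and was among the libraries left out above. Its fibroblast and tendon markers had the lowest sum of its group, 222 CPM (median 568). Its Schwann cell markers had the highest, 137 CPM (median 95.4). The part of other cells in these correlations was not tested.

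In the TA the relation that passed by both measures was between Chrna1 and Chrnb1 (r = 0.65, permutation p = 0.00092, adjusted 0.0092; rho 0.68, permutation p = 0.00349, adjusted 0.0233; 0.54 without 2 libraries). Chrnd and Chrne had r = 0.54 (permutation p = 0.0163, adjusted 0.0543), with a rho of 0.61 (permutation p = 0.00974, adjusted 0.039). Chrnd and Chrng, the neighboring genes, had r = 0.60 in the TA (permutation p = 0.0147, adjusted 0.0543; rho 0.30, permutation p = 0.227, adjusted 0.427). That relation rested on 2 libraries, and r was 0.16 without them. Whether the correlations differ between the muscles was not tested.

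**Figure D5:**
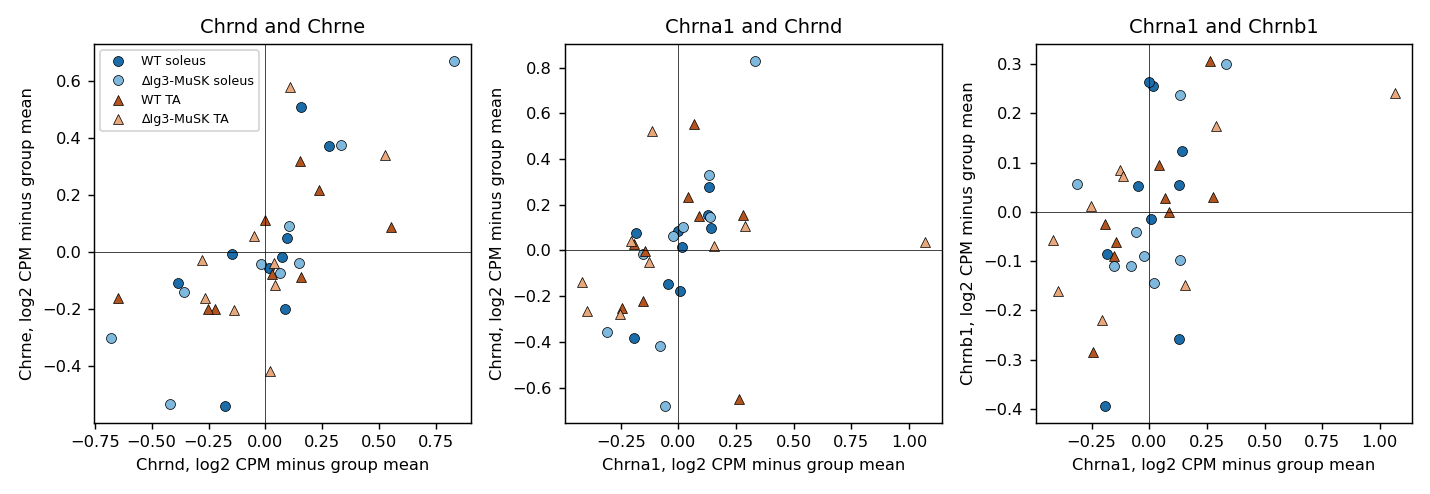
Deviation of log2 CPM from the group mean for 3 pairs of subunit genes (x and y axes) in 36 libraries, with circles for the soleus and triangles for the TA. Chrnd and Chrne rise together in the soleus, and a ∆Ig3-MuSK TA library stands alone at the right of both panels with Chrna1 on the x axis.

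Over all 36 libraries, the same deviations were compared with those of 15499 genes at a mean of at least 1 CPM, as a description of likeness. Chrng was below that level and was left out. Chrne was most like Ache (r = 0.86, n = 36), which encodes the acetylcholinesterase of the synaptic cleft, followed by Ufsp1 (0.74) and Sypl2 (0.71). Ache and Ufsp1 are neighbors on chromosome 5 with no shared exon bases. Chrnd was most like Smap2 (0.74), Hrc (0.70) and Chrne itself (0.69). Chrnb1 was most like Ehd4 (0.77), Ldb3 (0.75) and Armcx3 (0.75), of which Ldb3 encodes a protein of the Z-disc. Chrna1 was most like Nfkb2 (0.74), Nabp1 (0.73) and Tubb4b (0.70). Leaving out replicate 3 of ∆Ig3-MuSK TA lowered these 3 values to 0.37, 0.33 and 0.52 (n = 35). That library was chosen because Chrna1 stands apart in it. The leading genes of the other members stayed at 0.70 to 0.86, but no library was chosen in this way for those members. In likeness to Chrna1 over the 36 libraries, Chrnd ranked 1164 (r = 0.33) and Chrne 1571 (r = 0.30).

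Genes of receptor clustering and other postsynaptic genes were followed beside the subunits. Of 20 such genes 19 were tested. In the muscle difference 11 were higher and 5 lower in the soleus in WT (median log2 fold change 0.28, against 0.02 for all genes). In ∆Ig3-MuSK 6 were higher and 6 lower (0.12). Of all genes, 30.2% were higher and 27.3% lower in WT, and 28.5% and 27.6% in ∆Ig3-MuSK. Like Chrna1 and Chrnd, Musk was higher in the soleus (3.56-fold in WT and 3.66-fold in ∆Ig3-MuSK; edgeR adjusted p = 3.57e-15 and 3.46e-15), and so was Colq, the collagen tail that anchors acetylcholinesterase (4.94-fold and 3.99-fold; edgeR adjusted p = 2.74e-18 and 1.6e-16). Erbb3, a receptor for neuregulin, was 2.31-fold and 1.95-fold higher (edgeR adjusted p = 2.6e-14 and 9.28e-12), and Etv5, an ETS factor of synaptic nuclei, was 1.80-fold and 1.47-fold higher (edgeR adjusted p = 5.02e-10 and 3.07e-06). Like Chrnb1 and Chrne, Rapsn, which encodes the scaffold rapsyn, was lower in the soleus (log2 fold change −0.43 and −0.35; edgeR adjusted p = 1.41e-08 and 8.54e-07), although the WT value was −0.24, under 1.2-fold, with scaling by library size alone. Ache was lower as well (−0.89 and −1.04; edgeR adjusted p = 1.41e-07 and 5.31e-09).

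Between the genotypes, 1 of the 19 clustering and postsynaptic genes was called in the soleus and 0 in the TA, compared with 0.952% and 0.0149% of all genes. Col13a1, a transmembrane collagen of the junction, was at 1.78 to 2.79 CPM in WT soleus and 0.988 to 1.79 in ∆Ig3-MuSK soleus (log2 fold change −0.70, SE 0.12, edgeR adjusted p = 0.0161). Musk was at −0.44 in the soleus (SE 0.13, edgeR adjusted p = 0.0978) and −0.46 in the TA (SE 0.12, edgeR adjusted p = 0.135) and was not called. That depended on the method, since DESeq2 called it at about the same size in the soleus (adjusted p = 0.04) and in the TA (adjusted p = 0.0246). Musk was counted over the whole gene, and the exons deleted in ∆Ig3-MuSK give no reads in those mice. A lower Musk count there is therefore not by itself a lower number of transcripts. The part of the missing exons in these Musk values was not tested. Rapsn was at −0.01 (edgeR adjusted p = 0.927) and −0.08 (edgeR adjusted p = 0.405).

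Regulators and companions of receptor expression outside the junction, such as the myogenic factors, were the next list. In the muscle difference 6 of 13 were higher and 4 lower in the soleus in each genotype (median log2 fold change 0.26 in WT and 0.10 in ∆Ig3-MuSK). For all genes the shares higher and lower were 30.2% and 27.3% in WT and 28.5% and 27.6% in ∆Ig3-MuSK. Ncam1, an adhesion molecule that spreads along denervated fibers, was 4.40-fold higher in the soleus in WT and 3.42-fold in ∆Ig3-MuSK (edgeR adjusted p = 1.04e-16 and 1.96e-14). Dach2, a repressor of myogenin, was 4.21-fold and 4.29-fold higher (edgeR adjusted p = 4.67e-16 and 3.62e-16), and Myog itself 1.67-fold in both (edgeR adjusted p = 0.000117 and 0.000152). Gadd45a was lower in the soleus (log2 fold change −1.59 and −1.51; edgeR adjusted p = 3.01e-11 and 8.8e-11), as was Myod1 (−1.26 and −1.07; edgeR adjusted p = 6.03e-10 and 2.76e-08). Between the genotypes 0 of 13 were called in either muscle. Myog was at −0.28 in the soleus (edgeR adjusted p = 0.339) and −0.26 in the TA (edgeR adjusted p = 0.304), and Ncam1 at −0.37 (edgeR adjusted p = 0.171) and 0.01 (edgeR adjusted p = 0.975).

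The neuronal subunits of the same receptor family were mostly too low to test, with 4 of 11 tested in the muscle difference. Chrna2 was 18.3-fold higher in the soleus in WT and 12.4-fold in ∆Ig3-MuSK (edgeR adjusted p = 3.52e-09 and 3.16e-08), from levels of 2.74 to 7.30 CPM in WT soleus and 0.0137 to 1.13 in WT TA. Chrna10 was lower in the soleus, at 8.89 to 10.8 CPM in WT against 14.8 to 21.2 in the TA (log2 fold change −0.97; edgeR adjusted p = 2.68e-13; −0.78 in ∆Ig3-MuSK, edgeR adjusted p = 7.99e-11). Chrna4 was lower in the ∆Ig3-MuSK soleus than TA (−1.07; edgeR adjusted p = 0.0024) and at −0.64 in WT (edgeR adjusted p = 0.0825), and the interaction did not pass (edgeR adjusted p = 0.565). None was called between the genotypes among the 4 tested in the soleus and 3 in the TA.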

How the data were processed

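RNA-seq was done on 36 whole soleus and TA muscles, 9 per genotype and muscle. Per the labels and the study's methods, the authors made non-stranded libraries from total RNA (NEBNext Ultra kit), trimmed reads with Trimmomatic, checked them with FastQC, aligned them to GRCm38 (mm10) with GSNAP, used SAMtools and counted with htseq-count. The deposited values are whole-number counts per Ensembl ID, without normalization, in a table per muscle. The annotation release and counting mode were not given in the sources used here. Reads on antisense genes cannot be told apart without strand, and total RNA counts may include unspliced transcripts.

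Symbols were found for 51633 of 51912 IDs. Counts were tested in R 4.3.3 with edgeR 4.0.16 (filterByExpr with a minimum count of 10 and total of 15, TMM, glmQLFit, glmQLFTest), within a muscle for genotype and over 36 libraries for muscle and interaction. Calls needed a Benjamini-Hochberg adjusted p under 0.05 and at least a 1.2-fold change. CPM used TMM factors over 36 libraries (0.811 to 1.19). Exon lengths came from GENCODE and promoters from RefSeq. Correlations used 100000 permutations. The genotype fits held 18 libraries each, and Chrng had few counts in each library.

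The members and all gene lists were chosen with earlier results of these data known. Beside the members the text names Musk, Rapsn, Myog and Ncam1, and up to 4 called genes with the smallest adjusted p per list and comparison, of which 1 is not reported here; for each member at a mean of 1 CPM or more it names the 3 genes with the highest likeness. Gadd45a, Nfkb2 and Nabp1 in a single library, and Ache and Ufsp1 as neighbors, were singled out with their values known. The alternatives tried were DESeq2 1.42.0, limma-voom (limma 3.58.1), other scaling, filters and blocks, and each library left out. Of 200 genes changed by 1 on the log2 scale in simulated counts, 90.5% were recovered for the soleus genotype effect (19309 genes) and 93.0% for the TA (19890). The WT muscle difference recovered 91.5% (20571) and the interaction 77.0% (20535). False calls were 9 of 190, 4 of 190, 5 of 188 and 9 of 163. This change was larger than any genotype value of the members, and far more genes differed between the real muscles. The recovered shares therefore do not give the power for the members.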

Additional observations from a re-analysis of the deposited data

Results flagged for a closer look

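Of the members' values, 4 stood far from the rest of their group of 9, with a gap to the nearest library above Dixon's 95% critical share of the group's range. The 24 groups tested were the 5 members and the fetal share in 4 groups, and chance flags about 1 in 20. Chrna1 was at 12.2 CPM in ∆Ig3-MuSK TA replicate 3, with the next library at 7.12 CPM. The same library held the highest Gadd45a (66.5 CPM, group median 27.4), Nfkb2 (20.6, median 8.88), Nabp1 (29.5, median 10.6), Musk (4.01, median 3.08) and Ncam1 (4.62, median 3.57) of its group and the highest sum of Schwann cell markers (126 CPM, median 70.2), while its Chrnd and Chrne were inside the range of the others. The part of other cells in this value was not tested. Chrnd was at 2.87 CPM in ∆Ig3-MuSK TA replicate 8, with the next at 2.14, and the same library had the most Chrng counts of its group, 19.

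Chrng was at 0.775 CPM (46 counts) in WT soleus replicate 7, with the next library at 0.411 CPM, and the macrophage markers of that library summed to 76.7 CPM (group median 36.3) and its fibroblast and tendon markers to 1226 CPM (median 777). Chrng was at 0.555 CPM (32 counts) in WT TA replicate 4, with the next at 0.283. The cause of these values was not tested.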

How the results depend on the processing

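The muscle differences of Chrna1, Chrnb1, Chrnd and Chrne kept direction and call under every alternative run. Of 540 values of the members with a library left out, 521 kept direction and call and 19 changed sign; of 181 under other alternatives, 179 did and 2 changed sign, counting as uncalled the 4 values to which DESeq2 gave no adjusted p. Chrng was too low to test in the muscle fits of a single genotype and of the label number block. One 36-library fit put the soleus genotype effect of Chrna1 at 0.0024 and of Rapsn at 0.00052, and scaling by library size alone put the interaction of Chrne at −0.04 and shifted all genes by 0.18 in the WT muscle difference and −0.13 in the interaction. With a library left out, the soleus genotype effect ranged from −0.05 to 0.02 for Chrna1 and −0.03 to 0.01 for Rapsn, the TA effect from −0.07 to 0.17 for Chrna1, −0.02 to 0.05 for Chrnb1, −0.07 to 0.06 for Chrne and −0.05 to 0.08 for Ncam1, and the interaction from −0.17 to 0.07 for Chrna1, −0.00089 to 0.19 for Chrne and −0.47 to 0.18 for Chrng. The fetal share difference between genotypes in the soleus ranged from −1.46 to −0.803 points.

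Counts over all genes moved more. The soleus genotype effect called 185 genes, but 317 with library size alone, 312 in the 36-library fit and 486 with DESeq2, and 22 (without WT replicate 5) to 602 (without WT replicate 1) with a library left out, moving by more than 1.5 times in 15 of 18 cases. The TA effect called 3 genes, but 10 without a filter, 692 in the 36-library fit and 225 with DESeq2, and 3 to 9 with a library left out. The genotype by muscle interaction called 0 genes with edgeR (5193 at an unadjusted p under 0.05), 797 with DESeq2, and 0 to 1300 with a library left out, with 1300 without WT TA replicate 9, 920 without ∆Ig3-MuSK TA replicate 3, 95 without WT soleus replicate 1 and at most 10 otherwise. The causes were not tested.

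The labels' replicate numbers were not shown to pair the samples, since at most 3 of 9 pairs by title number and 5 of 8 by label number had a correlation over 0.1. By label number no pair was negative (lowest correlation 0.03), and 4 of 8 WT and 5 of 8 ∆Ig3-MuSK libraries correlated best with their own number, a hint from the data and not from the design. With the title number as a replicate block 347 genes were called in the soleus and 0 in the TA, and the WT muscle difference of the fetal share was 1.58 points (exact permutation p = 0.0508). With the label number as a block it was 1.67 points (exact permutation p = 0.102), and limma-voom with that number as a random block called 9 genes for the interaction. Both blocks thus lost the WT call of the fetal share, and neither changed the call of a member gene it could test. Musk was called in the soleus under the title block and with DESeq2, and also without ∆Ig3-MuSK replicate 5, and in the TA with DESeq2 and in the 36-library fit.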

Other observations

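Of 8 genes known to help fold, assemble and move the receptor, 4 were higher and 2 lower in the soleus in WT. In ∆Ig3-MuSK 4 were higher and 1 lower (median log2 fold change 0.48 in each genotype). Among all genes 30.2% were higher and 27.3% lower in WT, and 28.5% and 27.6% in ∆Ig3-MuSK. The chaperones Canx (0.85 in WT and 0.72 in ∆Ig3-MuSK; edgeR adjusted p = 8.57e-18 and 1.05e-15), Calr (0.62 and 0.57; edgeR adjusted p = 3.38e-13 and 4.69e-12) and Hspa5 (0.73 and 0.58; edgeR adjusted p = 2.59e-10 and 4.88e-08) serve many membrane proteins besides the AChR. Between the genotypes 0 of the 7 tested were called in either muscle.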
